A study of Arabidopsis thaliana with 28 samples.

Results

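Pericentromeres are the regions that flank the centromeres, and in Arabidopsis most of their DNA is transposons and other repeats packed into heterochromatin, with dense DNA methylation and histone H3 methylated on lysine 9. Genes are sparse there, and those that are transcribed sit as islands in silent DNA. Trimethylation of lysine 4 of histone H3 (H3K4me3) is found at the start of transcribed genes, and trimethylation of lysine 27 (H3K27me3) is set by Polycomb proteins on genes that are silent in some tissues.

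Active pericentromeric genes were taken as the genes of the deposited expression table whose midpoint lay in chr1:13050001-16600000, chr2:2050001-6300000, chr3:11200001-15850000, chr4:2700001-5500000 or chr5:10050001-13850000 (TAIR10) and whose value was at least 3 FPKM (fragments per kilobase of gene, scaled to the number of mapped fragments) in autotetraploid 4 × Col-0 or in Col-0. They were 324 of the 4097 pericentromeric genes, of 33278 nuclear genes and of 33557 genes in the table. In all, 306 reached the limit in both genotypes, 6 in 4 × Col-0 only and 12 in Col-0 only. The plants were 4 × Col-0, an autotetraploid line raised from Columbia with colchicine, and Col-0, the diploid Columbia wild type. Seeds of both were stratified in the cold for 3 days, and seedlings of 10 days grown in long days on MS medium were used. Beyond this the labels give neither another allele nor a treatment. For each genotype there were 2 ChIP-seq libraries of H3K4me3, 2 of H3K27me3, 2 Hi-C libraries, 1 anti-H3 library and 3 RNA-seq replicates, whose FPKM were deposited as 1 value per gene. The study calls its replicates biological without saying whether they were separate pools of plants, so p-values below measure the spread between these libraries.

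The genes were selected on FPKM, so FPKM values are given as a description with no test, and the marks and contacts carry the tests. The 3 genes just inside the limit were SADHU3-2 (0.780 FPKM in 4 × Col-0 and 3.01 FPKM in Col-0), AT2G13960 (2.52 in 4 × Col-0, 3.07 in Col-0) and FIP1 (3.05 in 4 × Col-0, 3.07 in Col-0). The 3 just outside were RPA1A (2.95 FPKM in 4 × Col-0 and 2.49 in Col-0), QQS (2.78 in 4 × Col-0, 2.604 in Col-0) and CYP705A13 (2.38 in 4 × Col-0, 2.77 in Col-0). The methods name the aerial parts of seedlings, and the 4 aerial markers RBCS1A, CAB3, RCA and PSBO1 lay between 3094 and 16063 FPKM. Of the 4 root markers none was at 0, and the largest, CASP1 of the Casparian strip, had 61.8 FPKM in 4 × Col-0 and 76.6 FPKM in Col-0.

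The 324 genes were mostly protein-coding, in a setting of loci with little or no listed transcript. By the TAIR10.1 annotation 297 (91.7%) were protein-coding, 13 were pseudogenes, 4 transcribed pseudogenes, 5 lncRNAs, 3 other ncRNAs and 2 rRNA genes. Of the 3773 pericentromeric genes under the limit, 71.4% were pseudogenes, the class that holds annotated transposon genes, and 88.8% were listed at 0 in both genotypes. The median length of an active pericentromeric gene was 2224 bp against 2176 bp for the 15004 active genes of the chromosome arms, and the median GC content was 38.6% against 39.2%. Of the active pericentromeric genes 174 (53.7%) had a neighbour under the limit on both sides, against 18.8% of active arm genes, and 22 (6.79%) had an active neighbour on both sides, against 34.5%. Only 324 of the 4097 pericentromeric genes were active, so this contrast depends on the density of active genes. Whether they were more scattered or more clustered than their density gives was not tested.

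The share of active genes among all listed loci fell with depth. Within 500 kb of a border 182 of 1079 genes (16.9%) were active, from 500 to 1000 kb 86 of 1122 (7.66%), and farther inside 56 of 1896 (2.95%). Pseudogenes are counted in these totals, and whether the types of locus change with depth was not tested. Chromosome 2 held 87 active genes (8.37% of its pericentromeric genes), chromosome 3 held 69 (6.57%) and chromosome 5 held 63 (7.76%). Chromosome 4 held 53 (8.79%) and chromosome 1 held 52 (8.78%). The deepest of all was AT3G32980, a peroxidase gene 2322 kb inside the pericentromere of chromosome 3 (chr3:13526097-13529997, minus strand), with 278 FPKM in 4 × Col-0 and 367 FPKM in Col-0. The deepest on chromosome 5 was AT5G32440, whose product has a ubiquitin-binding CUE domain, with 88.7 FPKM in 4 × Col-0 and 86.9 in Col-0 at 1772 kb. On the other 3 chromosomes the deepest genes were weak: AT1G38131, AT2G10931 and RAP2.9 had 3.01 to 4.54 FPKM in 4 × Col-0 and 3.08 to 5.09 FPKM in Col-0.

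Some of these genes had high FPKM. In both genotypes 34 reached 100 FPKM and 3 reached 1000 FPKM. PSBX (AT2G06520, chr2:2587729-2588358, minus strand), a small subunit of photosystem II, had 4425 FPKM in 4 × Col-0 and 4670 FPKM in Col-0, 538 kb inside the border. UBQ10 (AT4G05320, chr4:2718170-2720308, plus strand), a polyubiquitin gene much used as a constitutive control, had 1918 FPKM in 4 × Col-0 and 2179 FPKM in Col-0. It lies close to the border of its interval at 2700001. AGT1 (AT2G13360), the serine:glyoxylate aminotransferase of photorespiration, had 1611 FPKM in 4 × Col-0 and 1700 in Col-0.

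The 300 bases around the starts of the first pair (250 before and 50 after the start in the table) are shown since these genes had the highest FPKM of the 324. Bases are from the RefSeq copy of TAIR10.1, and capitals mark every match to 4 motifs searched on both strands: the TATA box (TATAAA), the G-box (CACGTG), the telo box (AAACCCTA) and the site II element (TGGGCC).
PSBX, chr2:2588309-2588608, minus strand: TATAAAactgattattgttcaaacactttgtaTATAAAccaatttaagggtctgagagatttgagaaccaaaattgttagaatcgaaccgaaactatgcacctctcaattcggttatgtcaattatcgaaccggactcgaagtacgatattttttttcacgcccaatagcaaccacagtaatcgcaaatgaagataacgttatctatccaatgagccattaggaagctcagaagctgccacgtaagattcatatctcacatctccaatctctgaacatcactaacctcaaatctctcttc
UBQ10, chr4:2717920-2718219, plus strand: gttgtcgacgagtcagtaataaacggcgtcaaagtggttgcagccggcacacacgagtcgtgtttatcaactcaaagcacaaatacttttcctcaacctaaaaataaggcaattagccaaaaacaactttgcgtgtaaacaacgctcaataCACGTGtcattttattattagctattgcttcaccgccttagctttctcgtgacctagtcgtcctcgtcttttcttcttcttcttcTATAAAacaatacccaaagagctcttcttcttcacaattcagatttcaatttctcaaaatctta

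TATAAA was in 181 of the 324 promoters (55.9%), against 50.1% of active arm promoters and 48.3% of all nuclear promoters. CACGTG was in 22 (6.79%), against 1515 of 15003 active arm promoters and 7.19% of all. TGGGCC was in 13.9%, against 20.2% of active arm and 13.6% of all promoters, and AAACCCTA in 6.79%, against 8.18% of active arm and 8.15% of all promoters. No factor is inferred from a match or its absence. The last pair of motifs is known from promoters of ribosomal protein genes. Both stood together in 6 of the promoters, and 4 of these belong to cytosolic ribosomal protein genes, of small subunit proteins RPS24B, RPS29A and RPS29B and of large subunit protein RPL35AB. Their windows are shown because the shared layout, a site II element upstream of a telo box near the start in the table, can be read in them.
RPS24B, chr5:10070850-10071149, minus strand: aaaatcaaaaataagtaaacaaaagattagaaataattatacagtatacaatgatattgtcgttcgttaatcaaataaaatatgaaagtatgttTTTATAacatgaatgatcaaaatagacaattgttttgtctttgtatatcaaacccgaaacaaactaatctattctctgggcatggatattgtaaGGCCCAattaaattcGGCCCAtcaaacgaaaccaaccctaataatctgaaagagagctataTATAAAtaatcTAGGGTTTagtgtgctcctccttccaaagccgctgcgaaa
RPS29A, chr3:15779262-15779561, minus strand: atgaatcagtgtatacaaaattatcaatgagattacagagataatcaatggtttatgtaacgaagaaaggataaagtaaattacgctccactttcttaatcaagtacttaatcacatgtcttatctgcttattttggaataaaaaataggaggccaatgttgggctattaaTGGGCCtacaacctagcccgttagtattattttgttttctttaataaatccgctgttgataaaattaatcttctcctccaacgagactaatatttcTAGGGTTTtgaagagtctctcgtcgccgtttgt
RPS29B, chr3:15801151-15801450, minus strand: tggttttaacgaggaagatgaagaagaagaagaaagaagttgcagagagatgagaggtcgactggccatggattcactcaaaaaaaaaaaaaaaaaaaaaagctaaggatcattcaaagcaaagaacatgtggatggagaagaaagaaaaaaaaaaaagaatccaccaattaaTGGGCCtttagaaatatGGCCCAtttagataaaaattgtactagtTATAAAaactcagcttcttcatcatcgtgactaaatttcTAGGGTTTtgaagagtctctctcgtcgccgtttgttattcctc
RPL35AB, chr1:15652493-15652792, minus strand: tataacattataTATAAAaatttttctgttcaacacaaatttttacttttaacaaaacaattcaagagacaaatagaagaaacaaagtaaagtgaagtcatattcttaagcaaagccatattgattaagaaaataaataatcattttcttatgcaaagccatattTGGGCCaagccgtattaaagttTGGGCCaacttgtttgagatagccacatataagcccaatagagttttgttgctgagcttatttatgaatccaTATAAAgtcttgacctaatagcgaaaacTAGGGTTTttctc
In each the telo box reads as its reverse complement, TAGGGTTT. The windows of RPS29A and RPS29B, a pair of paralogues, have a run of 26 identical bases in common. The other promoters with both motifs were those of the kinetochore gene MIS12 and of AT3G44020, annotated as a thylakoid lumenal protein. AT3G44020 and RPS29B are divergent neighbours whose windows overlap over most of their length, so the same matches in 1 stretch of DNA count for both.

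The genes were then grouped by function. Of 87 loci listed by function in 8 groups, 71 were active pericentromeric genes, 10 lay in the intervals under the limit and 6 lay outside them. The lists were drawn up with earlier results of these data known, so their makeup is not a result. Of all nuclear genes of at least 3 FPKM, 1.15% were at least 2-fold higher in 4 × Col-0 and 0.737% at least 2-fold lower. Nothing is therefore read from a list of this size that holds no such gene. Of the 324 genes, 50 (15.4%) had no described product, against 7.33% of active arm genes. A kinase was named in the product of 14 (4.32%) against 5.09% of arm genes, and a ribosomal protein in 10 (3.09%) against 1.97%.

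In photosynthesis and the plastid, all 14 listed genes were active and none differed 2-fold between the genotypes, with a median log2 ratio of 0.05. GAPB of the Calvin cycle had 767 FPKM in 4 × Col-0 and 826 in Col-0, GS2, the chloroplast glutamine synthetase, 972 FPKM in 4 × Col-0 against 901 in Col-0, and PGR5 of cyclic electron flow 230 FPKM in 4 × Col-0 against 191 in Col-0. GS2 (chr5:13830429-13833542) lies close to the border of its interval at 13850000. PHS1, the plastid starch phosphorylase, stood highest in this group by ratio, at 50.01 FPKM in 4 × Col-0 and 33.3 FPKM in Col-0. In translation, all 8 listed genes were active, between 62.1 and 428 FPKM in 4 × Col-0 and between 57.9 and 488 FPKM in Col-0, and none differed 2-fold. RPS29B was the highest of them, and the initiation factor EIF5 the lowest.

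In protein folding and turnover all 7 listed genes were active and none differed 2-fold. Their median log2 ratio was 0.21, against 0.07 over all nuclear genes of at least 3 FPKM, and this was not tested. BIP1, an HSP70 chaperone of the endoplasmic reticulum, had 58.2 FPKM in 4 × Col-0 and 49.2 in Col-0, while the proteasome subunit PAA1 had 51.8 FPKM in 4 × Col-0 against 39.4 in Col-0. In metabolism and transport, 12 of 13 genes inside the intervals were active and 1 of them was 2-fold lower. NIA2, a nitrate reductase 1110 kb inside chromosome 1, had 559 FPKM in 4 × Col-0 against 632 in Col-0. GME, of ascorbate synthesis, had 169 FPKM in 4 × Col-0 against 147 in Col-0. Of the 7 cell wall genes inside the intervals 4 were active, and XTH4, a xyloglucan endotransglucosylase/hydrolase, was highest with 418 FPKM in 4 × Col-0 and 459 in Col-0.

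Of the 13 genes of immunity and hormones 10 were active, and none was above 41.5 FPKM, the Col-0 value of the jasmonate synthesis gene OPR3. PR1, the marker of the salicylic acid response, was under the limit with 0.417 FPKM in 4 × Col-0 and 0.130 in Col-0. Nuclear proteins were active for 12 of 15 genes, and their median log2 ratio was 0.20, against 0.07 over all nuclear genes of at least 3 FPKM, again without a test. They included DAYSLEEPER, a domesticated hAT transposase, with 17.5 FPKM in 4 × Col-0 and 16.9 in Col-0, the transcription elongation factor SPT5-2 with 19.7 in 4 × Col-0 against 17.0 in Col-0, and the methyl-CpG-binding protein MBD2 with 20.3 in 4 × Col-0 against 19.1 in Col-0. The Dicer gene DCL3 of RNA-directed DNA methylation was under the limit, at 1.14 FPKM in 4 × Col-0 and 1.07 in Col-0.

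A few transcribed repeats passed the limit. The 4 SADHU elements among them, non-autonomous retroposons known to vary in silencing between accessions, were singled out after their values were seen. SADHU1-1 had 164 FPKM in 4 × Col-0 and 231 FPKM in Col-0, SADHU1-3 had 8.19 against 7.32 FPKM, SADHU4-1 6.65 against 10.5 FPKM and SADHU3-2 0.780 against 3.01 FPKM, each for 4 × Col-0 against Col-0. In 13 of the 324 genes at least 50% of the 31-base words occur elsewhere in the genome, so reads of near-identical copies cannot be told apart and the values are uncertain. These include 6 genes in the mitochondrial DNA inserted into chromosome 2 and the 18S and 5.8S rRNA genes. The 18S gene AT3G41768 is listed at 780 FPKM in 4 × Col-0 against 1078 in Col-0, and the 5.8S gene AT3G41979 at 818 FPKM in 4 × Col-0 against 510 in Col-0.

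Between the genotypes the transcription of most of these genes was close to even. Ratios were taken as log2 of (FPKM + 1) in 4 × Col-0 over that in Col-0, which understates changes at low values, and without replicates there was no test. The median over the 324 genes was 0.05, against 0.07 over all 15328 nuclear genes of at least 3 FPKM. At least 2-fold higher were 5 genes (1.54%), where 1.15% of all such nuclear genes were, and at least 2-fold lower were 6 (1.85%), where 0.737% were. Since this contrast shares its values with the choice of the genes, nothing is read from these shares. Scaling to the upper quartile shifted the median of all genes to 0.01 and gave 4 genes higher and 7 lower.

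**Figure D1:**
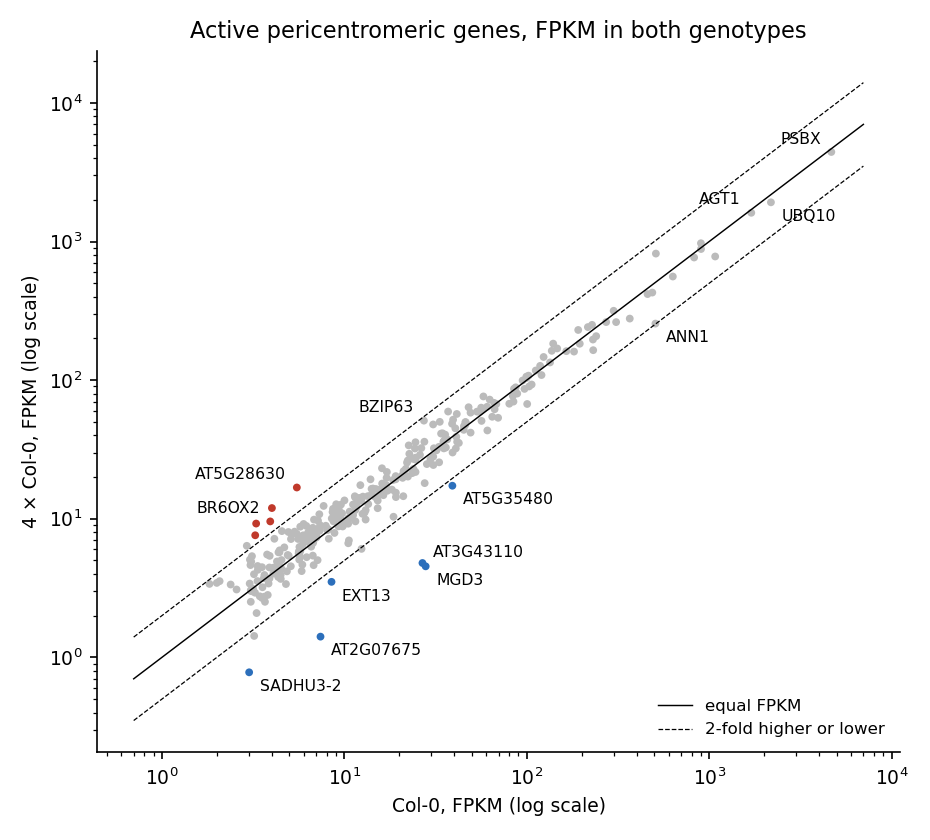
FPKM of the 324 active pericentromeric genes in 4 × Col-0 (vertical, log scale) and Col-0 (horizontal, log scale), 1 point per gene, with the line of equal values and dashed lines at a 2-fold difference. Red points mark the 5 genes at least 2-fold higher and blue points the 6 at least 2-fold lower on the log2(FPKM + 1) scale, and MGD3, with 4.54 FPKM in 4 × Col-0 and 27.9 FPKM in Col-0, lies farthest below the line.

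The highest ratio was that of AT5G28630, a glycine-rich protein gene, with 16.8 FPKM in 4 × Col-0 and 5.49 FPKM in Col-0 (log2 ratio 1.46). AT5G28300, annotated as homeodomain-like, had 11.9 FPKM in 4 × Col-0 against 4.01 in Col-0, AT4G08310 had 9.23 in 4 × Col-0 against 3.28 in Col-0, and AT4G08580 had 7.60 in 4 × Col-0 against 3.25 in Col-0. BR6OX2, a brassinosteroid oxidase that makes the active hormone, had 9.56 FPKM in 4 × Col-0 and 3.92 FPKM in Col-0. AT3G29644 came just under 2-fold, with 6.38 FPKM in 4 × Col-0 and 2.92 FPKM in Col-0, as did BZIP63, a bZIP factor known from the response to low energy, with 51.0 FPKM in 4 × Col-0 and 27.3 FPKM in Col-0.

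The lowest ratio was that of MGD3 (AT2G11810, chr2:4743322-4746780, plus strand), which makes galactolipid when phosphate is low, with 4.54 FPKM in 4 × Col-0 and 27.9 FPKM in Col-0 (log2 ratio −2.38). AT3G43110, of unknown function, had 4.79 FPKM in 4 × Col-0 and 26.8 FPKM in Col-0, and AT5G35480, also uncharacterized, had 17.3 FPKM in 4 × Col-0 against 39.1 in Col-0. EXT13, an extensin of the cell wall, had 3.50 FPKM in 4 × Col-0 and 8.50 FPKM in Col-0. SADHU3-2 and AT2G07675 were the other 2, and AT2G07675 lies wholly in the mitochondrial insertion, where 1.41 FPKM in 4 × Col-0 and 7.40 FPKM in Col-0 cannot be assigned to it. ANN1, an annexin, fell short of the limit with 256 FPKM in 4 × Col-0 and 507 FPKM in Col-0. The root hair markers EXPA7 and EXPA18 were also lower, at 15.3 and 15.8 FPKM in 4 × Col-0 against 21.5 and 23.3 FPKM in Col-0, as was CASP1, while MYB36 had 3.87 FPKM in 4 × Col-0 against 2.38 FPKM in Col-0, and the part of root tissue in these differences was not tested. In such bulk samples fewer cells of a type and less RNA per cell cannot be told apart, and FPKM, being relative to the library, do not give RNA per cell.

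Peak lists hold called regions only, and a gene without a listed peak may still carry the mark. Histone marks were then read at the genes. H3K4me3 counted as present where a peak overlapped the gene body by at least 1 base. Peaks were on 77.2% and 79.6% of the active pericentromeric genes in the 4 × Col-0 libraries, and on 78.7% and 74.4% in the Col-0 libraries, replicate 1 first. The values of the genotypes overlap, with means of 78.4% ± 1.75 in 4 × Col-0 and 76.5% ± 3.06 in Col-0 (SD, n = 2 each). Names in these lists carry "merge" or "Rep4", so whether the 2 lists of a genotype are independent is unsure. This limit holds for every SD and p-value given for H3K4me3. The difference of 1.85 percentage points had an exact permutation p of 0.667, two-sided, where 2 libraries against 2 cannot go below 0.33, and it was −0.309 without Col-0 replicate 2 and 4.01 without Col-0 replicate 1. In all 4 libraries 234 of the genes (72.2%) had a peak, 30 had one in some libraries and 60 (18.5%) had none.

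H3K4me3 was less frequent than on active genes of the arms. Over the 4 libraries the share was 77.5% ± 2.30 on active pericentromeric genes and 83.3% ± 2.33 on active arm genes (SD, n = 4), lower in 4 of 4 libraries, and the mean difference was −5.87 percentage points (exact sign-flip permutation p = 0.13, two-sided, the smallest that 4 libraries allow). With protein-coding genes only the difference was −4.42 points, and with genes of at least 10 FPKM it was −3.76 points, each lower in 4 of 4 libraries. Pericentromeric genes under the limit had a peak in 1.72% to 2.41% of cases.

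**Figure D2:**
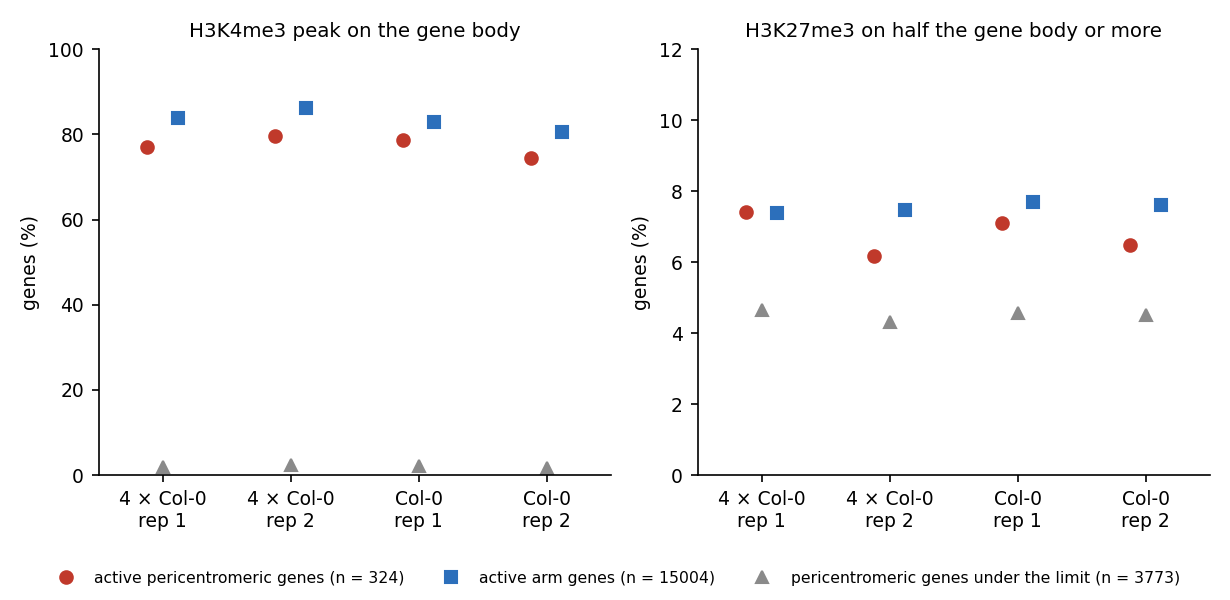
Share of genes (vertical, %) with an H3K4me3 peak on the body (left) and with H3K27me3 on at least 50% of the body (right), 1 point per ChIP-seq library, in 324 active pericentromeric genes, 15004 active arm genes and 3773 pericentromeric genes under the limit. For H3K4me3 the pericentromeric points lie between 74.4% and 79.6% and below the arm point of the same library, and for H3K27me3 they lie between 6.17% and 7.41%.

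The shares were also compared within ranges of mean FPKM. Under 10 FPKM, 69.1% and 72.1% of the 136 active pericentromeric genes had a peak in the 4 × Col-0 libraries and 72.8% and 63.2% had one in the Col-0 libraries. Of arm genes in this range 77.4% and 80.8% had a peak in 4 × Col-0, against 76.7% and 73.8% in Col-0. At 100 FPKM or more, the shares of the 36 pericentromeric genes were 83.3% and 88.9% in the 4 × Col-0 libraries, against 86.1% and 80.6% in the Col-0 libraries, and those of arm genes were 90.1% and 91.7% in 4 × Col-0, against 89.1% and 87.8% in Col-0. In each of the 4 ranges the pericentromeric share was the lower one in 4 of 4 libraries.

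**Figure D3:**
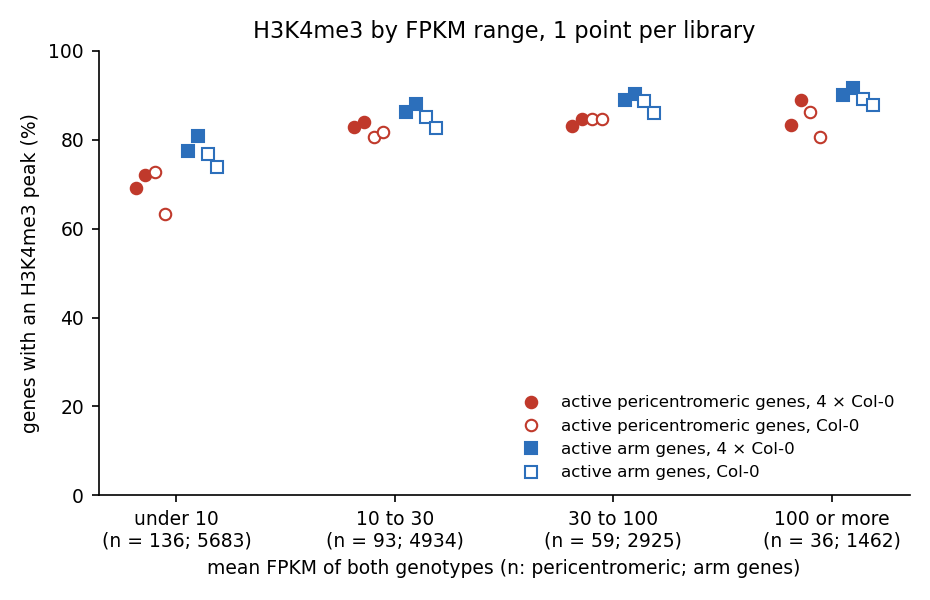
Share of genes with an H3K4me3 peak (vertical, %) by range of mean FPKM (horizontal), with 1 point per library for active pericentromeric genes (circles) and active arm genes (squares), filled for 4 × Col-0 and open for Col-0. The number of genes stands under each range, and the circles lie lowest under 10 FPKM, between 63.2% and 72.8%.

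Where a peak was present, its strength was near that on arm genes. The median fold enrichment of the strongest peak per gene was 3.45 and 3.87 in the 4 × Col-0 libraries and 4.12 and 4.04 in the Col-0 libraries, and on arm genes it was 3.44 and 3.80 in 4 × Col-0, against 4.36 and 3.99 in Col-0. Peak widths had medians of 574 and 630 bp in 4 × Col-0, against 561 and 508 bp in Col-0, narrower in 4 of 4 libraries than on arm genes, where they were 620 and 675 bp in 4 × Col-0, against 625 and 555 bp in Col-0. The median summit lay 258 to 272 bp after the start given in the expression table.

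High FPKM without a listed peak was also seen. ANN1 had no peak in any library at 256 FPKM in 4 × Col-0 and 507 FPKM in Col-0, nor had the deep peroxidase gene AT3G32980. The phospholipase gene PLA2-ALPHA had none either at 93.0 FPKM in 4 × Col-0 and 106 in Col-0, nor had TED6 of xylem differentiation at 63.3 FPKM in 4 × Col-0 and 56.2 in Col-0. The same held for the lipid-transfer gene XYP2 (43.3 FPKM in 4 × Col-0, 60.8 in Col-0), the glutathione transferase gene GSTU27 (59.3 in 4 × Col-0, 37.0 in Col-0) and the glycine-rich protein gene AT4G08230 (41.3 in 4 × Col-0, 34.5 in Col-0). AGT1 had a peak in 1 library only, 4 × Col-0 replicate 2, on 43.5% of its body, and GS2 had a peak in both 4 × Col-0 libraries, on 8.12% and 8.09% of its body, and in neither Col-0 library. By contrast PSBX was covered over 86.5% and 96.5% of its body in 4 × Col-0 and over 99.7% and 97.0% in Col-0.

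H3K4me3 at the genes that differed 2-fold in FPKM is given as a description. Of the 6 genes at least 2-fold lower, 5 had no H3K4me3 peak in any library, the exception being AT3G43110, and of the 5 at least 2-fold higher each had a peak in 3 or 4 libraries. Among arm genes 60.7% of the 107 that were 2-fold lower and 18.7% of the 171 that were 2-fold higher had no peak, against 12.3% of those within 2-fold. SADHU3-2 and AT2G07675, both among the 5, passed the limit through their Col-0 values only. These counts were taken after the values were seen, share their FPKM with the choice of the genes and were not tested, so nothing is read from them.

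H3K27me3 counted as present at 50% of the gene body or more. It lay on 7.41% and 6.17% of the active pericentromeric genes in 4 × Col-0 and on 7.10% and 6.48% in Col-0, a mean of 6.79% in both, and the values overlap (difference 0.0 points, exact permutation p = 1.0). The mean over the 4 libraries was 6.79% ± 0.564 on these genes and 7.53% ± 0.133 on active arm genes (SD, n = 4), and the difference of −0.745 points had an exact sign-flip p of 0.25, where the smallest possible is 0.13. It was −0.327 points with protein-coding genes only (exact p = 0.5) and −1.46 points with peaks of −log10 q of at least 5 (exact p = 0.13).

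In all 4 libraries 15 of the genes (4.63%) were under H3K27me3, and 7 of these also had an H3K4me3 peak in all 4. P1R3 (AT3G29370), the most strongly transcribed of them at 117 FPKM in 4 × Col-0 and 112 FPKM in Col-0, was covered over 100% of its body by H3K27me3 in every library and over 57.7% to 69.0% by H3K4me3. FTM1, a desaturase-like gene of the floral transition in the meristem, had 67.3 FPKM in 4 × Col-0 and 100.5 FPKM in Col-0 with H3K27me3 over 97.2% to 100% of its body. TED6, the transporter gene UMAMIT20 (20.6 FPKM in 4 × Col-0, 20.8 in Col-0) and the acyltransferase gene PMAT2 (11.6 in 4 × Col-0, 11.5 in Col-0) carried H3K27me3 with no H3K4me3 peak. AT3G43110, which had the next lowest ratio after MGD3, carried both marks in all 4 libraries, H3K27me3 over 100% and 92.3% of the body in 4 × Col-0 and over 100% in both Col-0 libraries. AT3G43430, a RING/U-box gene at 10.3 FPKM in 4 × Col-0 against 18.6 in Col-0, and AT4G06744, a leucine-rich repeat gene at 9.87 in 4 × Col-0 against 13.1 in Col-0, did so too. Bulk libraries do not show whether such a pair of marks is on the same copies of a gene.

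Gene by gene, the mean fold enrichment over the body (0 where no peak is listed) was compared between the genotypes with limma on log2(fold + 1), with Benjamini-Hochberg adjustment over all genes above 0 in at least 2 libraries. For H3K4me3, limma called 0 of 16519 genes (background 0% in each direction) and 0 of the 257 active pericentromeric genes tested, although 1630 genes and 22 of the 257 had an unadjusted p under 0.05. Both 4 × Col-0 libraries lay above both Col-0 libraries in 58 of the 257 (22.6%, background 22.6%) and below in 46 (17.9%, background 19.4%). These counts include any gene with a peak in both libraries of 1 genotype alone, which cannot overlap. In simulated data of this size the fit recovered 61.5% of differences of 2 on the log2 scale and 0% of differences of 1. Sizes between 1 and 2 were not simulated. The differences were added whatever the level of the gene, and whether real genes can reach 2 on this scale was not checked. The count of 0 therefore does not show that the mark was unchanged.

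Of the 257 genes, the smallest unadjusted p for H3K4me3 was that of BZIP63 (AT5G28770, chr5:10796459-10798222, minus strand). Its mean fold enrichment was 1.48 and 1.50 in the 4 × Col-0 libraries, against 0.349 and 0.396 in the Col-0 libraries, and these do not overlap. The peak spread over 43.4% and 48.1% of the body in 4 × Col-0 and over 15.0% and 16.9% in Col-0. The log2 difference was 0.86 ± 0.106 (SE), with an adjusted p of 0.476 by limma, so it does not pass.

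**Figure D4:**
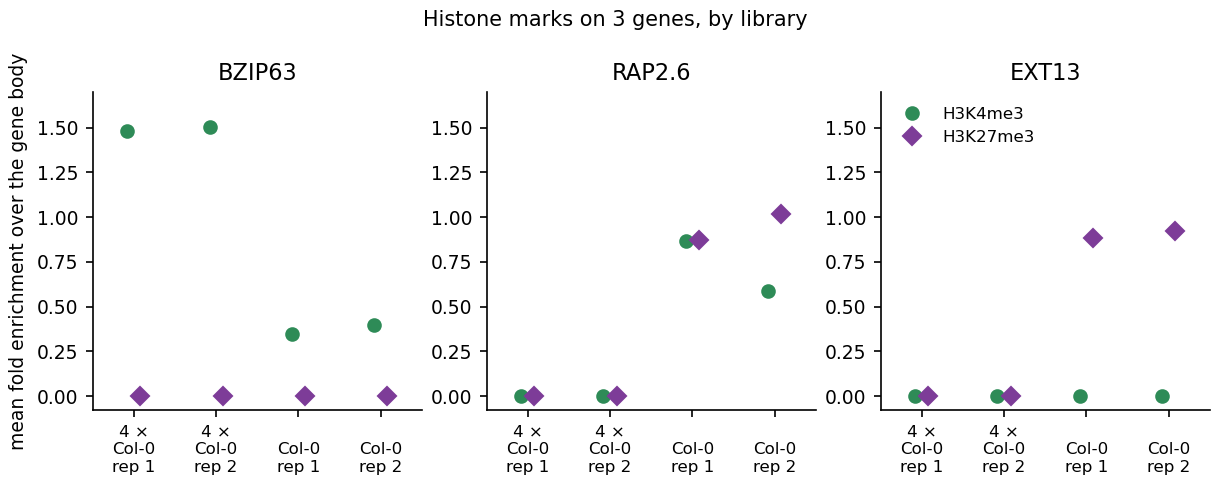
Mean fold enrichment over the gene body (vertical, 0 where no peak is listed) of H3K4me3 (circles) and H3K27me3 (diamonds) in each ChIP-seq library for BZIP63, RAP2.6 and EXT13. BZIP63 has H3K4me3 at 1.48 and 1.50 in 4 × Col-0 and at 0.349 and 0.396 in Col-0, and RAP2.6 and EXT13 have H3K27me3 in the Col-0 libraries and none in 4 × Col-0.

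For H3K27me3, limma called 42 of 7775 genes, 16 higher (0.206%) and 26 lower (0.334%) in 4 × Col-0, and of the 39 active pericentromeric genes tested 2 were called, both lower. Both were above 0 in the Col-0 libraries alone, so they met the limit of 2 libraries only through the genotype where they were higher. Without that limit 1 active pericentromeric gene was called, and with the replicate number as a block 0. The 2 calls are therefore given as a description. EXT13 (AT5G35190, chr5:13434181-13435167, plus strand) had no peak in either 4 × Col-0 library and mean folds of 0.882 and 0.925 in Col-0, over 60.1% and 56.3% of its body (log2 difference −0.93 ± 0.0713 SE, adjusted p = 0.0404). RAP2.6 (AT1G43160, chr1:16263813-16264818, plus strand), an ERF transcription factor of stress responses, had none in 4 × Col-0, against mean folds of 0.875 and 1.02 in the Col-0 libraries (log2 difference −0.96 ± 0.0796 SE, adjusted p = 0.0447). RAP2.6 also had H3K4me3 in Col-0 only, at 0.866 and 0.588, and its transcript stood at 3.12 FPKM in 4 × Col-0 against 3.16 FPKM in Col-0. Both calls rest on peaks being listed or not, and neither gene passed without 4 × Col-0 replicate 2, without Col-0 replicate 1 or without Col-0 replicate 2. Over all genes the number called was 103 without 4 × Col-0 replicate 1 and 0 without either Col-0 library. Of the 39, 8 (20.5%, background 13.4%) lay higher without overlap and 7 (17.9%, background 26.5%) lower. Genes with a peak in both libraries of 1 genotype alone pass the limit of 2 libraries and cannot overlap. EXT13 and RAP2.6 are such genes among the 7, so nothing is read from these shares.

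Anti-H3 peaks, from 1 library per genotype and so without a replicate check, overlapped 53.7% of the active pericentromeric genes in 4 × Col-0, against 48.1% in Col-0. On active arm genes the shares were 53.8% in 4 × Col-0, against 48.7% in Col-0.

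Hi-C gave the contacts of the 50-kb bins that hold these genes. Active genes were in 161 of the 381 pericentromeric bins, at most 9 in one bin, and 5 bins held at least 5. For each bin class the mean signal with pericentromeres of other chromosomes was divided by that with arms of other chromosomes, in log2. For bins with 5 or more active genes this gave −0.01 and 0.03 in the 4 × Col-0 libraries, against −0.16 and −0.15 in the Col-0 libraries. The 214 bins without any active gene that had signal gave 0.73 and 0.78 in 4 × Col-0, against 0.65 and 0.86 in Col-0. Arm bins stood at −0.52 and −0.38 in 4 × Col-0, against −0.56 and −0.55 in Col-0. Bins with 5 or more active genes thus lay between arm bins and pericentromeric bins without an active gene in each library.

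The difference, bins with 5 or more active genes minus bins with none, averaged −0.83 and was negative in 4 of 4 libraries (exact sign-flip permutation p = 0.13, two-sided, the smallest possible). The 5 bins lay near the borders, a median of 175 kb inside against 1175 kb for bins without active genes, and no bin at least 500 kb inside held 5. With 3 or more active genes per bin and only bins at least 500 kb inside, chosen after seeing this, 12 bins against 191 gave −0.54, negative in 4 of 4 libraries. Between the genotypes that difference came to −0.75 ± 0.00462 in 4 × Col-0, against −0.91 ± 0.147 in Col-0 (SD, n = 2 each), smaller in size in 4 × Col-0 by 0.16 (exact permutation p = 0.33, the smallest that 2 against 2 allows), and by 0.06 without Col-0 replicate 2 and 0.27 without Col-0 replicate 1.

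**Figure D5:**
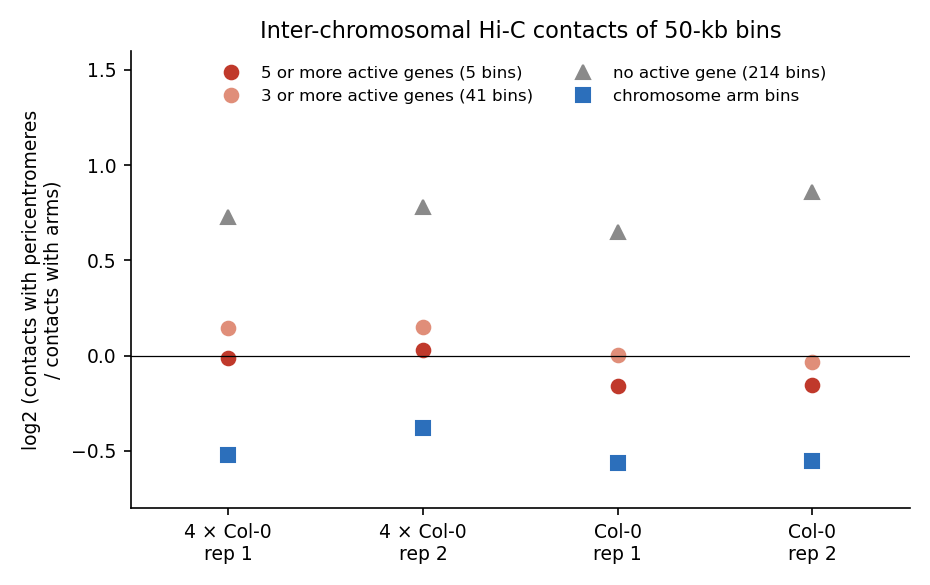
Log2 ratio of inter-chromosomal Hi-C signal with pericentromeres to that with arms (vertical) in each library for pericentromeric 50-kb bins with at least 5, at least 3 or no active genes and for arm bins. Bins with 5 or more active genes lie between −0.16 and 0.03, below bins with none (0.65 to 0.86) and above arm bins.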

How the data were processed

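Seedlings of 10 days, 4 × Col-0 and Col-0, were profiled by RNA-seq, ChIP-seq and Hi-C. RNA reads were aligned to TAIR10 by the authors (STAR, featureCounts), and the deposited table has 1 FPKM value for each gene in each genotype; how the 3 replicates were combined is not stated, and read depth is unknown. The authors called ChIP-seq peaks with BWA and Macs2 per library, and the deposited lists give a fold enrichment (a ratio to the control) and −log10 q-value per peak. The methods name anti-H3 as the control, which cannot hold for the anti-H3 lists themselves, and the control of those lists is not stated. Names in the H3K4me3 lists carry "merge" or "Rep4", 1 of each per genotype, so independence of these lists is unsure. The deposited Hi-C matrices, made by the authors with HiC-Pro and Juicer, hold KR-normalized signal of 50-kb bins, not scaled to a common depth, so only ratios within a library were used. Input libraries and the authors' gene lists were not used here.

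Gene positions are those of the table, and types and names come from TAIR10.1 by locus (all 324 matched). Only 136 of the 324 share a start or an end with TAIR10.1, which limits the promoter windows and the summit distances. Percent of body under peaks and mean fold per gene were computed, then tested with limma 3.58.1 in R 4.3.3 at an adjusted p of 0.05; libraries were compared with exact permutation tests, two-sided. In simulated H3K27me3 data limma recovered 56.5% of log2 differences of 1.

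Members, lists and rules were chosen with earlier results of these data known. Named genes were listed loci, the 10 highest by mean FPKM, the 8 largest rises and falls, the 8 highest under H3K27me3 in 4 libraries or without H3K4me3, the deepest per chromosome and called genes. Alternatives were peaks with −log10 q of at least 5, other overlaps, 10 FPKM, coding genes only, other pseudocounts, filters and scalings, a replicate block, other bins, and leaving out each library.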

Additional observations from a re-analysis of the deposited data

How the results depend on the processing

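Peak lists and FPKM values carry no read depth, so counting error is unknown, and with 2 libraries per genotype no exact permutation test between the genotypes can pass 0.05. The H3K4me3 share difference between the genotypes ranged from −0.309 to 4.01 percentage points with 1 library left out. The H3K27me3 share difference was −1.08 points with peaks of −log10 q of at least 5, against 0.0. Differences of active pericentromeric from active arm genes, and the Hi-C differences, kept their sign under all alternatives run; 5 or more genes per bin at least 500 kb inside could not be run, since no bin was left.

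With limma, H3K4me3 calls over all genes were 1 on percent of the body, 8 without the filter and 8 with quantile normalization, against 0, and none was an active pericentromeric gene. H3K27me3 calls over all genes were 114 with a pseudocount of 0.1 against 42, and 0 to 103 with 1 library left out. For active pericentromeric genes they were 1 without the filter, where limma warned of zero variances, 3 with a pseudocount of 0.1, and 0 to 2 with 1 library left out, against 2.

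The replicate numbers do not pair the samples by any label. With the replicate block limma called 0 genes for H3K4me3 and 0 for H3K27me3, 0 of them active pericentromeric genes, and the Hi-C difference between the genotypes stayed 0.16. Deviations of same-numbered libraries correlated at 0.116 for H3K27me3 and at −0.211 for H3K4me3, where the crossed pairing, added after seeing the data, also called 0.

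Of active pericentromeric genes with at least 10 FPKM, 2 were 2-fold higher and 3 lower, against 5 and 6. A pseudocount of 0.1 gave 6 and 8, and leaving out repeated genes, added after seeing the data, 5 and 5.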
